A study of Danio rerio with 54 samples.

Results

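Cytochrome P450 genes encode haem enzymes that insert oxygen into lipids, hormones, vitamins and foreign chemicals. The genes described here are the rows of the deposited table whose gene name begins with cyp followed by a digit, which gave 85 of 31953 genes, over all 18 groups of the study. They fell into 17 numbered families. Family 2 was the largest with 42 genes, families 1, 3 and 27 had 5 each, and families 4 and 26 had 4 each. In 54 libraries 84 of the 85 genes had at least 1 read, the exception being cyp8b3. The names cyp26c1 and cyp2x10.2 each stood on 2 rows, which are told apart by Ensembl identifier. The 2 entries written in capitals, CYP27A1 and CYP46A1, fell outside the choice.

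The study measured RNA of whole zebrafish (Danio rerio) embryos and larvae by sequencing. Wildtype fish were of the AB strain. The knockout line carried a TALEN-made frameshift in exon 3 of nfe2, a loss of 8 bases, induced in embryos of AB/TL hybrid ancestry, so that nfe2 genotype and strain background cannot be told apart. The gene nfe2 encodes a transcription factor of the Cap'n'collar family. Animals of each genotype were held in water, in 20 µM diquat (a herbicide that cycles electrons to oxygen) or in 1 mM tBOOH (tert-butyl hydroperoxide, an organic peroxide) for 4 h, starting at 2, 48 or 96 hours post-fertilisation (hpf), and were frozen after 4 h of recovery. The protocol therefore places sampling at 10, 56 and 104 hpf, whereas the sample descriptions give 2, 48 and 96 hpf, and the latter are used as names. Each of the 18 groups had 3 pools of 30 animals. Whole-animal RNA mixes all tissues, so fewer cells of a type and less RNA per cell cannot be told apart.

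Values are the authors' normalised counts, that is, read counts divided by 1 size factor per library. They are not corrected for gene length, so levels are not compared between genes. The libraries held 0.527 to 1.04 M counted reads, with a median of 0.772 M. For comparison, the submitters describe about 25 M sequenced reads per sample. At this depth 1 read corresponded to a normalised count near 1, and members under about 10 could not be measured closely. The mitochondrial gene mt-nd6 lay above the median of the other 12 mitochondrial mRNAs in 54 of 54 libraries. That gene lies on the opposite strand to the others, and no source used here states whether the counting used strand, so values of genes with an antisense neighbour are uncertain. The transcript of nfe2 itself ranged from 1.60 to 19.9 in wildtype and from 8.17 to 34.4 in knockout libraries at 2 hpf. Later it was at most 3.44 in wildtype and 4.39 in knockout libraries. A deletion of a few bases can leave the RNA in place, so these values check no genotype label. A gene was tested where its value reached 10 in at least 3 libraries of the fit. That left 17 P450 genes at 2 hpf, 12 at 48 hpf, 24 at 96 hpf and 35 in the fit across stages, and 50 of the 85 entered no fit within a stage. Changes are given as log2 of value plus 1, with standard errors and Benjamini-Hochberg adjusted p-values from limma over all genes tested.

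P450 enzymes sit in the endoplasmic reticulum or in mitochondria and receive electrons from a reductase. Family 26 degrades retinoic acid, the vitamin A derivative that patterns the embryo. Families 11, 17, 19 and 21 build steroid hormones, family 51 makes cholesterol precursors, and families 7, 8, 27 and 39 are known in mammals for bile acids and vitamin D. Families 1 to 3 are known for oxidising drugs, pollutants and fatty acids, mostly in liver and gut, and family 4 for hydroxylating fatty acids.

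In wildtype water the P450 genes together made up a small and changing share of the RNA. Their summed normalised count was 510 ± 43.7 at 2 hpf, 296 ± 18.3 at 48 hpf and 1061 ± 36.3 at 96 hpf (mean ± SD, n = 3 pools each). The sum at 96 hpf was 0.140% of all reads, with 65 to 70 of the 85 genes detected per library. Knockout larvae in water reached 357 ± 27.02 at 96 hpf, or 0.0434% of reads, with 44 to 50 genes detected. The 3 knockout pools lay between 334 and 386, and the 3 wildtype pools between 1019 and 1084. At 48 hpf the sum in knockout water was 221 ± 33.6. Its pools lay between 186 and 253, and the wildtype pools between 276 and 312, without overlap. A sum weighs genes with many reads most. Gene by gene, 40 of 65 P450 genes with reads had a lower mean in the knockout at 48 hpf (61.5%, against 50.1% of all genes). All 3 knockout pools lay below all 3 wildtype pools in 2 genes and above in 2, where 7.11% and 7.47% of all genes did so. At 2 hpf the sum in knockout water was 472 ± 32.1, and the ranges of the genotypes overlapped there.

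**Figure D1:**
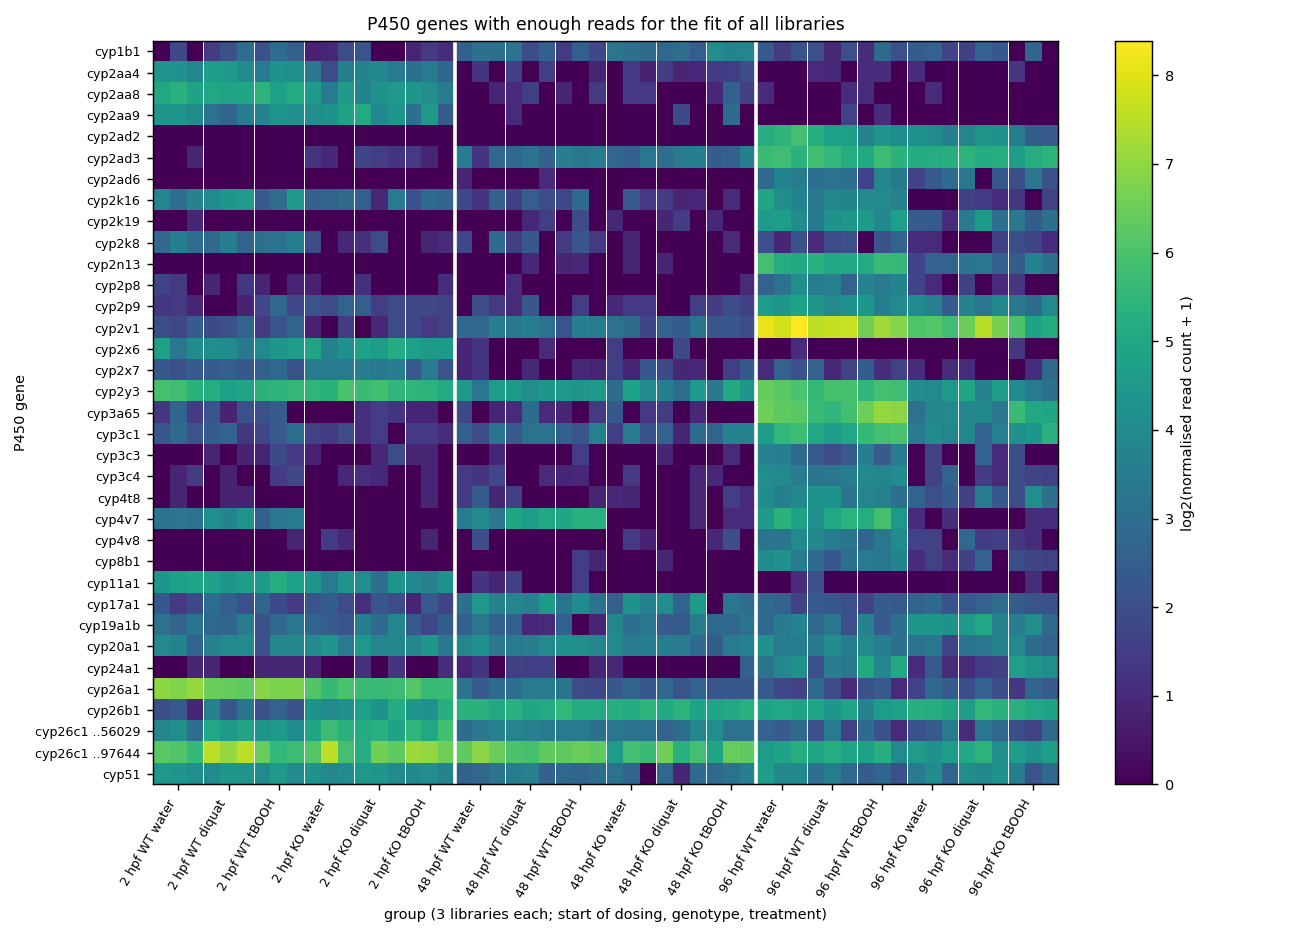
Colour shows log2(normalised count + 1) of the 35 P450 genes that passed the level filter in at least one fit (rows) in the 54 libraries (columns, ordered by stage, genotype and treatment). The family 2 and 3 block that lights up in the wildtype 96 hpf columns is darker in the knockout columns of that age, and cyp4v7 is near 0 in knockout columns of every age.

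Retinoic acid hydroxylases and several family 2 genes held the most P450 reads at 2 hpf. At 2 hpf in wildtype water cyp26a1 had 125, 111 and 134 normalised counts in the 3 pools, and cyp26c1 (ENSDARG00000097644) had 74.3, 68.6 and 48.4. The remaining 8 genes with the largest counts were cyp2y3, cyp2aa8, cyp11a1, cyp51, cyp2aa9, cyp2aa4, cyp2x6 and the other cyp26c1 row (ENSDARG00000056029), with means from 52.2 down to 12.3.

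Between the 2 hpf and the 48 hpf series in wildtype water 6 of the 35 tested P450 genes rose and 11 fell, where 38.3% of all 13205 genes tested rose and 20.2% fell. The P450 median change was 0.00 and that of all genes 0.39. The filter lets in genes that are high at 2 hpf alone, among them cyp26a1, cyp11a1 and the cyp2aa genes, which favours calls of a fall. It also lets in genes that are high at 96 hpf alone, cyp3a65 and cyp2n13 among them, which favours a small median change. Without the filter 33 of 66 P450 genes with reads had a lower mean at 48 hpf (50%, against 40.2% of all genes). All 3 pools at 48 hpf lay above all 3 at 2 hpf in 9 genes and below in 17. Of all genes 28% and 16.4% did so. The retinoic acid hydroxylase cyp26a1 fell from a mean of 123 to 6.48 (-4.08 ± 0.38, adjusted p = 1.52e-13). The side-chain cleavage gene cyp11a1, first step of steroid synthesis, held 20.7, 25.8 and 30.2 in the 3 pools at 2 hpf and 0, 1.47 and 0.829 at 48 hpf, a fall of 3.99 ± 0.46 with an adjusted p of 1.16e-10. These groups did not overlap. Among the zebrafish cyp2aa genes, cyp2aa8 fell from 31.4, 40.3 and 27.6 to 0, 0 and 0.828 (-4.79 ± 0.45, adjusted p = 3.28e-13), a ratio of 102 with a 95% counting interval of 18 to 4069. No read of cyp2aa9 was left at 48 hpf, which with a floor of 3 reads over the group is an at least 18.6-fold lower level (adjusted p = 8.44e-10). Also called lower were cyp2aa4 (-3.71 ± 0.46) and cyp2x6 (-3.31 ± 0.45), with cyp2k16 (-1.62), cyp2y3 (-1.58), cyp2k8 (-1.56), cyp2x7 (-1.53) and cyp51 (-1.50) changing less. For cyp2k8 the libraries of the stages overlapped, and the call was lost without 2 hpf wildtype water pool 2 or 48 hpf pool 2. The call of cyp2x7 was lost without 48 hpf pool 3, and that of cyp2k16 without 48 hpf pool 2.

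Among the genes that rose, cyp26b1, another retinoic acid hydroxylase, went from 3.06, 4.03 and 0.864 to 40.4, 41.1 and 32.3, a rise of 3.52 ± 0.31 with an adjusted p of 3.26e-14. The stages did not overlap, so within family 26 one gene fell while another rose over the same interval. Of the cyp26c1 rows neither was called (0.58 ± 0.37 for ENSDARG00000097644 and -0.35 ± 0.45 for ENSDARG00000056029). The aryl hydrocarbon receptor target cyp1b1 rose by 2.32 ± 0.56 (adjusted p = 0.000382) to a mean of 6.61. The steroid 17-hydroxylase cyp17a1 rose by 1.93 ± 0.55 (adjusted p = 0.0023) to 7.58, 22.0 and 11.6. The family 2 gene cyp2ad3 rose by 2.21 ± 0.39 (adjusted p = 3.82e-06). Weaker calls were those of cyp4t8 (1.29 ± 0.49, adjusted p = 0.0209) and cyp2v1 (0.97 ± 0.41, adjusted p = 0.0375). The call of cyp4t8 was lost without 2 hpf pool 1 or 3 or 48 hpf pool 2, and that of cyp2v1 without 2 hpf pool 1 or 2 or 48 hpf pool 3. At 48 hpf the 10 members with the most reads in wildtype water were both cyp26c1 rows, cyp26b1, cyp2y3, cyp17a1, cyp20a1, cyp4v7, cyp2v1, cyp1b1 and cyp26a1, and their means ran from 96.0 to 6.48. The step is described relative to a shift of all genes: the change of the median gene was 0.39 as deposited and 0.26 after trimmed-mean rescaling, under which 5 members rose and 12 fell. In knockout water 6 members rose and 12 fell over this step, where 38.9% of all genes rose and 18.9% fell. The same filter acts on these counts. Without it, 7 of 65 members had all 3 knockout pools at 48 hpf above all 3 at 2 hpf. In 17 they lay below, where 28.4% and 14.5% of all genes lay above and below. In knockout water cyp26b1 rose by 1.12 ± 0.31 (adjusted p = 0.00182).

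Between 48 and 96 hpf in wildtype water many family 2, 3 and 4 genes rose, together with cyp8b1, cyp24a1 and cyp51. Of the 35 tested genes 20 rose and 1 fell, where 19.7% of all genes tested rose and 8.3% fell. The P450 median change was 2.09 against 0.20 for all genes. Because the level filter lets in genes that are high at 96 hpf alone, the unfiltered direction was counted as well. Of 80 P450 genes with reads 66 had a higher mean at 96 hpf and 14 a lower one (17.5%, against 35.6% of all genes). In 37 of the 80 all 3 pools at 96 hpf lay above all 3 at 48 hpf, which held for 24% of all genes with reads. After trimmed-mean rescaling the median gene shifted by 0.02, all genes split into 2035 higher and 1582 lower calls in place of 2607 and 1096, and 19 members rose while 3 fell.

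The gut gene cyp3a65, a CYP3A gene of zebrafish, went from 2.53, 0 and 0.829 at 48 hpf to 91.2, 79.1 and 74.97 at 96 hpf (5.47 ± 0.53, adjusted p = 5.82e-12). Its family 2 counterpart with the most reads, cyp2v1, went from 5.89, 5.87 and 10.8 to 275, 224 and 334 (5.06 ± 0.41, adjusted p = 1.08e-14). Both genes were separated between stages by more than the whole spread of the pools. Against a floor of 3 reads over the group at 48 hpf, where no pool had a read, cyp2ad2 was at least 46.7-fold higher at 96 hpf, cyp2n13 at least 43.0-fold and cyp2k19 at least 21.8-fold higher. The same held for cyp8b1, the sterol 12-hydroxylase of bile acid synthesis in mammals, which was at least 15.5-fold higher. The remaining genes with the largest fitted rises were cyp2p9 (3.52), cyp2p8 (3.32), cyp2ad3 (3.11), cyp2ad6 (3.11), cyp3c3 (3.09) and cyp24a1 (3.06 ± 0.50, adjusted p = 2.79e-06). The last of these inactivates hormonal vitamin D. Smaller rises were called for cyp4v8, cyp3c1, cyp2k16, cyp3c4, cyp4t8, cyp2y3, cyp4v7 and cyp51, from 2.84 down to 1.30. The sterol demethylase cyp51 was lost without 48 hpf pool 1 or 2 or 96 hpf pool 1, and cyp4v7 without 96 hpf pool 2. The gene called lower by the main test was cyp26c1 (ENSDARG00000097644), from 79.98, 120 and 87.8 to 23.1, 28.4 and 36.4 (-1.68 ± 0.37, adjusted p = 0.000368). Under other settings cyp17a1 was called lower too. Its adjusted p was 0.0151 with a pseudocount of 5, 0.0295 after trimmed-mean rescaling, 0.0207 by edgeR and 0.0489 by DESeq2. After that rescaling cyp26a1 was also called lower (-1.05, adjusted p = 0.0294). At 96 hpf the 10 members with the most reads were cyp2v1, cyp3a65, cyp2y3, cyp2ad3, cyp2ad2, cyp2n13, cyp3c1, cyp4v7, that cyp26c1 row and cyp26b1.

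Markers of digestive organs moved over the same interval. Of the liver list 18 of 20 tested genes rose and 0 fell, and of the intestine list 14 of 14 rose. Some of these markers, ttr, chia.2 and slc15a1b among them, had no read in wildtype water at 2 or 48 hpf. They passed the level filter through other libraries, which favours calls of a rise, so nothing is read from these counts. The summed liver value lay between 241 and 267 at 48 hpf and between 2455 and 2608 at 96 hpf, and the summed intestine value between 25.7 and 44.0 and between 1349 and 1533. At 48 hpf the liver genes ahsg2 and ttr and 1 row each of f10 and hp, and the intestine genes anpepb, chia.2 and slc15a1b, were at 0 in wildtype water. Pronephros genes rose in 6 of 9 cases, and genes of conjugation, the reactions that follow P450 oxidation, in 13 of 18. Over all genes tested 19.7% rose. The level filter acts on these lists too, so nothing is read from their counts either. The part of these tissues in the P450 rise was not tested.

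**Figure D2:**
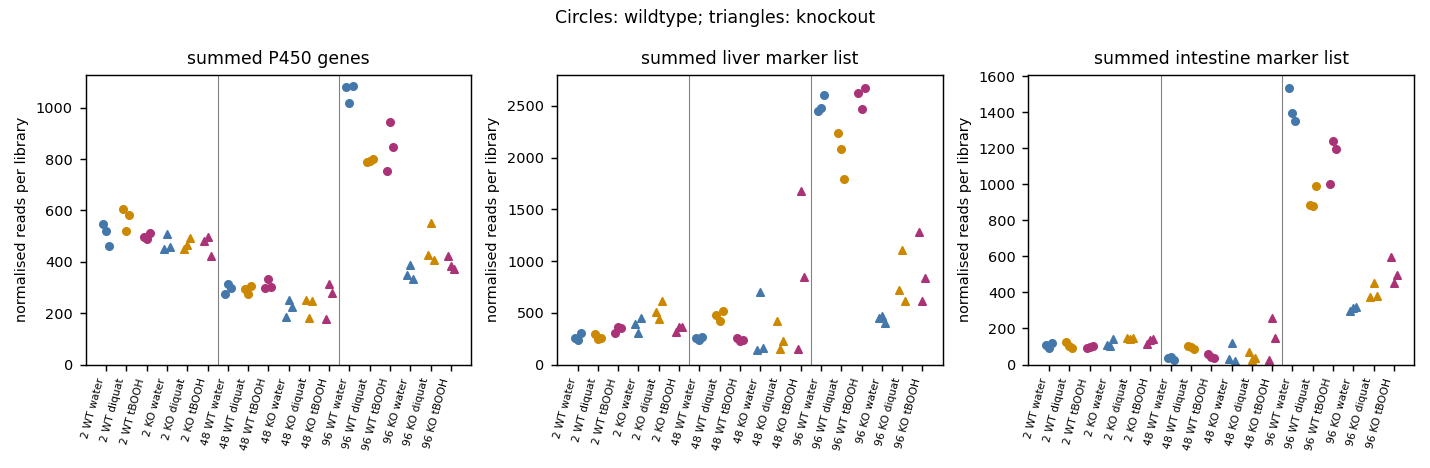
Summed normalised counts per library of the 85 P450 genes, the liver list and the intestine list, by group (circles are wildtype and triangles are knockout libraries). The P450 sum is 1019 to 1084 in wildtype water and 334 to 386 in knockout water at 96 hpf, and the liver and intestine sums separate the same libraries.

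The comparison of knockout with wildtype in water at 96 hpf gave 17 P450 calls, more than any other comparison within a stage. Of 24 tested genes these 17 were lower in the knockout, 0 were higher and 7 were not called, where 13.1% of the 11436 genes tested were lower and 9.92% higher. The P450 median difference was -2.07 and that of all genes 0.04. Many of the called genes, cyp3a65, cyp24a1 and cyp2n13 among them, passed the level filter at 96 hpf alone, where the wildtype is high. This favours calls of a lower knockout value and a lower median. Without any level filter, 67 of 81 P450 genes with reads had a lower mean in the knockout (82.7%, against 53.2% of all genes). In 32 of them all 3 knockout pools lay below all 3 wildtype pools and in 2 above, where 15.6% and 12.8% of all genes did so. In each of the 17 called genes the pools of the genotypes did not overlap.

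Called genes of families 2, 3 and 4 were all lower in the knockout. There cyp3a65 had 7.68, 13.6 and 14.5 normalised counts, against 91.2, 79.1 and 74.97 in wildtype water (-2.72 ± 0.26, adjusted p = 5.81e-09). The values of cyp2v1 were 65.9, 72.1 and 55.8 against 275, 224 and 334 (-2.07 ± 0.26, adjusted p = 5.76e-07). In both genes the genotypes were apart by more than the whole spread of the pools within either. For cyp2n13 the counts were 2.2, 5.22 and 5.58 against 59.7, 35.2 and 32.1 (-3.04 ± 0.35, adjusted p = 2.19e-07), and for cyp2y3 15.4, 14.6 and 21.2 against 83.8, 74.8 and 64.3 (-2.07 ± 0.28, adjusted p = 2.8e-06). No read of cyp2k16 was found in knockout water, against 29.3, 17.2 and 12.9 in wildtype, which is at least 18.1-fold lower (adjusted p = 4.38e-07). The gene cyp4v7, a relative of the human fatty acid hydroxylase CYP4V2, had 1.1, 0 and 1.12 against 22.0, 41.3 and 26.8. Its ratio was 42.6, with a counting interval of 11.5 to 357 from 94 and 2 reads (adjusted p = 3.66e-07). Further lower genes of these families were cyp2k19 (-2.48 ± 0.43), cyp3c3 (-2.84 ± 0.72), cyp3c4 (-2.44 ± 0.55), cyp2p8 (-2.41 ± 0.63), cyp4v8 (-2.40 ± 0.58), cyp3c1 (-1.59 ± 0.33), cyp2ad2 (-1.57 ± 0.32), cyp4t8 (-1.46 ± 0.50) and cyp2p9 (-1.27 ± 0.37). The call of cyp4t8 was lost without any 1 of 5 of the 6 libraries (all but knockout pool 1), with an adjusted p of up to 0.109. That of cyp2p9 was lost without wildtype or knockout pool 3 (up to 0.139), and that of cyp2p8 without wildtype pool 3 (0.0513).

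Among genes with endogenous substrates cyp8b1 and cyp24a1 were called lower. The bile acid gene cyp8b1 had 1.1, 2.09 and 1.12 in the knockout and 15.7, 18.1 and 10.7 in the wildtype (-2.70 ± 0.55, adjusted p = 0.000629). The vitamin D hydroxylase cyp24a1 had 1.1, 4.18 and 1.12 against 8.38, 13.8 and 18.2 (-2.28 ± 0.47, adjusted p = 0.000669). Neither gene overlapped between genotypes. The genes not called were cyp26b1 (0.26 ± 0.28), cyp26c1 (ENSDARG00000097644; -0.37 ± 0.31), cyp2ad3 (-0.40 ± 0.24), cyp51 (-0.76 ± 0.41), cyp20a1, an orphan enzyme (-1.03 ± 0.44), cyp2ad6 (-1.07 ± 0.65) and cyp19a1b. The brain aromatase cyp19a1b, which makes oestrogen in radial glia, had 19.8, 20.9 and 18.96 in the knockout and 6.29, 9.46 and 12.9 in the wildtype. These pools did not overlap, but the difference of 1.03 ± 0.42 had an adjusted p of 0.0773. It was called higher with the compared groups alone (adjusted p = 0.0127) and by edgeR (0.0479), but not by DESeq2. Of the radial glia list 5 of 9 tested genes were higher and 1 lower, with a summed value of 1758 to 1877 in knockout and 1101 to 1277 in wildtype water, and the part of radial glia in the cyp19a1b values was not tested.

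Several members below the level filter were also low in the knockout. The mean of cyp7a1, rate-limiting for bile acids in mammals, was 7.97 in wildtype and 0.37 in knockout water, a ratio of 21.7 with a counting interval of 3.55 to 894. For cyp2k18 and cyp2x9 no knockout pool had a read, which is at least 8.16-fold and at least 7.25-fold lower. The vitamin D 25-hydroxylase cyp2r1 had means of 7.44 and 1.46, and cyp1a, the classical aryl hydrocarbon receptor target, of 3.91 and 0.71. The steroid genes cyp11a2, cyp11c1, cyp17a2, cyp19a1a and cyp21a2 and the vitamin D activator cyp27b1 averaged at most 1.41 in both groups, where no difference could be detected at this depth. No gene of family 27 entered a test at any stage.

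**Figure D3:**
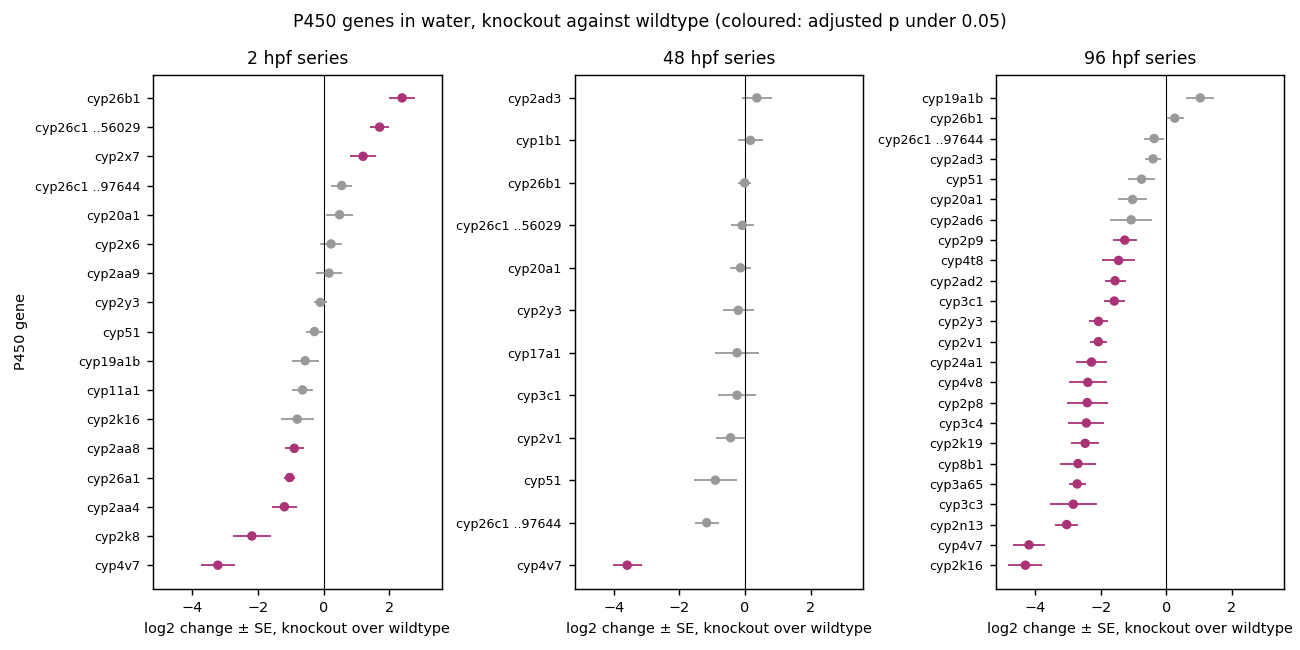
Difference between knockout and wildtype in water (log2 of value plus 1, horizontal axis; bars are standard errors) for each tested P450 gene at 2, 48 and 96 hpf, from 3 pools per group. At 96 hpf 17 of 24 genes are called lower, at 48 hpf cyp4v7 alone of 12 is called, and at 2 hpf 3 of 17 are called higher and 5 lower.

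Partners of the P450 enzymes and tissue markers differed in the same libraries. The reductase gene porb, which feeds electrons to microsomal P450s, had 9.88, 14.6 and 13.4 in knockout and 69.2, 58.5 and 41.8 in wildtype water (-2.06 ± 0.23, adjusted p = 1.35e-07). Of 12 tested electron donor and haem genes 5 were lower and 0 higher, cyb5a among them (-1.76 ± 0.38). Of 17 conjugation genes 13 were lower, including ugt1a1 (-2.08 ± 0.26), sult3st1 (ENSDARG00000009885, -2.6 ± 0.34) and sult1st1 (-1.69 ± 0.31). Over all genes tested 13.1% were lower and 9.92% higher. Lists by pathway moved less uniformly. Bile acid genes were lower in 3 of 5 cases (hsd3b7, fabp10a and nr0b2a), vitamin D genes in 1 of 3 (the binding protein gc, -2.42), and aryl hydrocarbon receptor genes in 1 of 10 (nqo1, -1.99) with 1 higher (arnt2, 0.80). Cholesterol synthesis had 1 of 11 lower (hmgcra, -1.33) and 1 higher (srebf2, 0.72). The steroid hormone list had 1 of 9 lower and 1 higher (srd5a2a, 0.94). Its lower gene was hsd3b7, the bile acid gene already counted above. The retinoid list had 2 of 19 lower (rbp4, -1.49, and bco1, -1.75) and 3 higher. The endoderm transcription factor foxa1 was lower (-3.65 ± 0.50). In water it was also called lower in the knockout at 48 hpf (-1.80 ± 0.45, adjusted p = 0.0376) and at 2 hpf (-3.79 ± 0.53, adjusted p = 6.11e-06). Of the liver list 19 of 20 tested genes were lower and of the intestine list 12 of 14, with medians of -2.62 and -2.63, among them tfa (-4.08), c3a.1 (-3.96), chia.2 (-4.04) and vil1 (-3.32). As with the P450 genes, markers and genes of the other lists that are high in the wildtype alone pass the level filter. This favours calls of a lower knockout value and lower medians. The summed liver value was 398 to 470 in knockout against 2455 to 2608 in wildtype water, and the intestine value 297 to 318 against 1349 to 1533. Of the defining markers, the f10 row ENSDARG00000099484 was at 0 in both groups, the hp row ENSDARG00000051890 was at 0 in wildtype water, and no intestine marker was at 0. Pronephros genes were lower in 2 of 9 cases (atp1a1a.4 and cubn), and vascular and interrenal genes in 0 of 2 and 0 of 1. The summed pronephros value was 158 to 166 in knockout against 221 to 232 in wildtype water, and the vascular value 41.7 to 58.5 against 70.7 to 107, without overlap. The part of these tissues in the P450 differences was not tested.

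The step from 48 to 96 hpf differed between the genotypes for 9 of 35 P450 genes, all with a lower step in the knockout. Over all genes tested 1.67% had a lower and 0.22% a higher step. Of the 9, cyp2n13, cyp8b1, cyp3a65, cyp2k19, cyp2ad2, cyp4v8 and cyp2p8 passed the level filter within a stage at 96 hpf alone. The wildtype is high there, which favours calls of a lower step in the knockout, so nothing is read from the share. In knockout water 12 of the 35 genes rose over this step and 0 fell, where 14% of all genes rose and 5.66% fell. After trimmed-mean rescaling 11 rose and 1 fell. Genes that are high at 96 hpf alone pass the level filter, which favours calls of a rise. Without the filter 25 of 68 P450 genes with reads had a lower mean at 96 hpf (36.8%, against 40.2% of all genes). All 3 knockout pools at 96 hpf lay above all 3 at 48 hpf in 18 genes and below in 4. Of all genes 18.6% and 7.4% did so. The median gene in the knockout shifted by 0.15 as deposited and by -0.03 after rescaling. For cyp2n13 the step was 5.38 ± 0.36 in wildtype and 2.06 ± 0.36 in knockout, a difference of -3.33 ± 0.51 (adjusted p = 2.12e-05). For cyp8b1 it was 3.96 ± 0.38 and 1.26 ± 0.38 (-2.70 ± 0.54, adjusted p = 0.0015), and for cyp2k16 the difference was -3.64 ± 0.79 (adjusted p = 0.00426). These 3 genes kept their call with any 1 library left out. Other tools gave fewer calls than 9, namely 2 by edgeR, 2 by DESeq2 and 4 with the compared groups alone. Of the 9 genes cyp2k16 was called under each of these settings. Without the filter 8 P450 genes were called. With a pseudocount of 5 there were 13. That setting added cyp2v1 (-1.75, adjusted p = 0.000921), cyp3c3, cyp3c4 and cyp24a1, all with a lower step in the knockout. The difference for cyp3a65 was -3.05 ± 0.75 (adjusted p = 0.0157) and for cyp2k19 -2.80 ± 0.64 (adjusted p = 0.00836), and the calls held in 9 and 11 of 12 fits with 1 library left out. Calls for cyp2y3, cyp2ad2, cyp4v8 and cyp2p8 (adjusted p from 0.0341 to 0.0417) held in 5, 3, 4 and 2 of 12 fits with 1 library left out. The step comparison was added after the values were seen, and it shares its 96 hpf libraries with the genotype comparison above. In the same test 7 of 20 liver and 7 of 14 intestine genes had a lower step in the knockout. The level filter favours such calls for markers that are high in the wildtype alone. Knockout water pool 2 at 48 hpf had summed liver and intestine values of 703 and 122. Pool 1 had 142 and 31.2, and pool 3 had 156 and 20.0. A high start level makes a step smaller, and the part of this pool in the marker counts was not tested. Rises in the knockout itself included cyp2v1 (3.42 ± 0.41) and cyp2ad2 (3.96 ± 0.30).

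At 48 hpf in water cyp4v7 alone of 12 tested P450 genes differed between the genotypes, where 0.977% of all 9725 genes scored lower and 1.51% higher in the knockout. It had 0 reads in all 3 knockout pools and 10.1, 14.7 and 9.11 in the wildtype, at least 12.5-fold lower (adjusted p = 6.21e-05). The larger cyp26c1 row (ENSDARG00000097644) had 23.4, 58.6 and 52.0 against 79.98, 120 and 87.8 and was not called (-1.17 ± 0.37, adjusted p = 0.093). Without knockout pool 2 it was called, at -1.41 with an adjusted p of 0.0321. That pool held a summed liver value of 703, against 142 and 156 in the other 2 knockout pools and 241 to 267 in the wildtype.

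In embryos of the 2 hpf series in water the genotypes differed in the retinoic acid hydroxylases and in a few family 2 genes. Knockout values were higher for 3 and lower for 5 of 17 tested P450 genes, where 15.9% of the 7783 genes tested were higher and 15.4% lower, and with 17 genes tested nothing is read from these shares. The median difference of the tested P450 genes was -0.28. Without the filter 32 of 63 P450 genes with reads had a lower mean in the knockout (50.8%, against 51.1% of all genes). All 3 knockout pools lay below all 3 wildtype pools in 15 genes and above in 6. Of all genes 12.9% and 11.7% did so. Within family 26 the genes went in both directions. Values of cyp26a1 were 67.6, 48.3 and 64.3 in the knockout and 125, 111 and 134 in the wildtype (-1.03 ± 0.17, adjusted p = 5.81e-05). In contrast cyp26b1 had 18.3, 14.6 and 17.4 against 3.06, 4.03 and 0.864 (2.39 ± 0.40, adjusted p = 5.74e-05). The smaller cyp26c1 row (ENSDARG00000056029) had 29.6, 52.9 and 41.3 against 13.0, 16.9 and 6.91 (1.71 ± 0.28, adjusted p = 5.24e-05). None of these 3 overlapped between genotypes, and each kept its call with any 1 library left out. For the larger cyp26c1 row the knockout pools spread from 59.7 to 187 and overlapped the wildtype.

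Other genes of the 2 hpf series were lower in the knockout. For cyp4v7 no knockout pool had a read, against 8.43, 8.87 and 7.77 in the wildtype, at least 10.1-fold lower (adjusted p = 3.88e-05). This gene was thus called lower in the knockout at 2, 48 and 96 hpf. The values of cyp2k8 were 2.82, 0 and 0.918 against 6.13, 11.3 and 6.91 (-2.19 ± 0.59, adjusted p = 0.00529). Differences of cyp2aa4 (-1.20 ± 0.37, adjusted p = 0.0151), cyp2aa8 (-0.89 ± 0.30, adjusted p = 0.0219) and cyp2x7, which was higher (1.20 ± 0.40, adjusted p = 0.0211), were less stable. The call of cyp2aa4 was lost without wildtype pool 1 or 2 or knockout pool 2, that of cyp2aa8 without pool 2 of either genotype, and that of cyp2x7 without wildtype pool 1 or 2 or knockout pool 1 or 3. Leaving out wildtype pool 2 took the 8 calls to 5. Among retinoid genes outside the P450 set 4 of 14 were higher and 4 lower, including the retinoic acid binding protein genes crabp2a (1.41 ± 0.21) and crabp2b (-1.40 ± 0.18) and the receptor-like nr2f5 (1.1 ± 0.21). The steroid gene hsd3b2 was lower (-2.29 ± 0.45) and so was foxa1 (-3.79 ± 0.53).

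**Figure D4:**
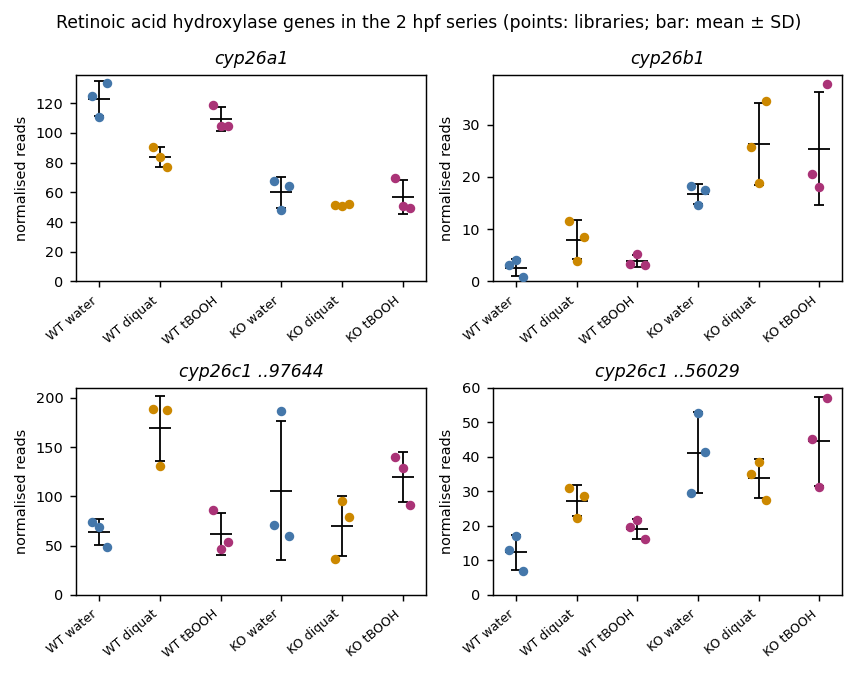
Normalised counts of cyp26a1, cyp26b1 and both cyp26c1 rows in each library of the 2 hpf series, by genotype and treatment (3 pools per group). In water cyp26a1 is lower and cyp26b1 higher in the knockout. The larger cyp26c1 row is at 131 to 189 in wildtype diquat, and a knockout water pool lies within that range.

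Diquat at 2 hpf raised both cyp26c1 rows in the wildtype, where 0.36% of all genes tested rose and 0.604% fell. The larger row (ENSDARG00000097644) went from 74.3, 68.6 and 48.4 in water to 189, 131 and 187 in diquat (1.40 ± 0.33, adjusted p = 0.0303), and the smaller (ENSDARG00000056029) from 13.0, 16.9 and 6.91 to 31.0, 22.4 and 28.6 (1.16 ± 0.28, adjusted p = 0.0392). The treated and control pools did not overlap in either row, and the rows may hold reads of near-identical sequence. Each call was lost in 5 of the 6 fits that left out 1 library, the larger row keeping it without diquat pool 2 and the smaller without water pool 2. With DESeq2 on the recovered reads neither was called (adjusted p up to 0.117). The other family 26 genes were not called: cyp26b1 had a difference of 1.32 (adjusted p = 0.139) and cyp26a1, at 90.3, 84.0 and 77.3 in diquat, of -0.55 (adjusted p = 0.172). Of 14 other retinoid genes tested 1 rose, crabp2a (1.26 ± 0.21), from 22.2, 15.3 and 16.4 to 33.7, 50.4 and 49.5.

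In the knockout at 2 hpf diquat left the larger cyp26c1 row at 36.2, 95.2 and 78.5, against 70.4, 187 and 59.7 in water. The diquat response of this row differed between the genotypes by -1.90 ± 0.47 (adjusted p = 0.0393), the 1 call among 17 P450 genes where 0.154% of all genes had a lower and 0.784% a higher response in the knockout. That call was lost in 9 of 12 fits with 1 library left out. The smaller row had a difference of -1.42 ± 0.40 that was not called (adjusted p = 0.0959). No P450 gene was called by limma for wildtype tBOOH at 2 hpf (1 of 17 with an unadjusted p below 0.05), for knockout diquat (2 of 17) or for knockout tBOOH (2 of 17), and edgeR and DESeq2 also made 0 calls in these 3 comparisons. Over all genes 1.46% rose and 1.36% fell with tBOOH in the wildtype, 3.11% rose and 0.63% fell with diquat in the knockout, and none was called for tBOOH in the knockout.

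At 48 hpf neither oxidant gave a called P450 gene in either genotype, at a depth and filter that left 12 genes to test. Knockout pools differed widely at this stage, as in the liver values given below. The fit shares a variance per gene over all groups of the stage, so their spread enters the wildtype tests too. Unadjusted p-values were below 0.05 for 1 gene with wildtype diquat, 3 with wildtype tBOOH, 0 with knockout diquat and 2 with knockout tBOOH. Of all genes 0.0103% rose and 0.0308% fell with diquat in the wildtype, 0.123% rose and 0.0411% fell with tBOOH in the wildtype, 0.175% rose and 0.0206% fell with tBOOH in the knockout, and none was called with diquat in the knockout. In the wildtype cyp4v7 had 29.7, 39.5 and 38.9 with tBOOH and 30.3, 23.4 and 31.4 with diquat, against 10.1, 14.7 and 9.11 in water. The treated pools lay above the controls, but the tBOOH difference of 1.61 ± 0.44 had an adjusted p of 0.284. With a pseudocount of 5 that difference was called (adjusted p = 0.0068), as it was by edgeR (0.0244) and with the compared groups alone (0.00714); DESeq2 made 0 calls. In the knockout cyp4v7 was at most 0.997 under either oxidant. The AHR target cyp1b1 had 16.4, 12.8 and 13.0 with tBOOH in the knockout, above the 8.76, 7.32 and 6.40 of knockout water, and was not called. Wildtype diquat pools had summed liver values of 422 to 519 against 241 to 267 in water. Their intestine values were 84.3 to 104 against 25.7 to 44.0, and radial glia values 955 to 1026 against 1039 to 1140, without overlap. In knockout tBOOH pools the liver values were 154, 1676 and 850, against 142, 703 and 156 in knockout water. The part of these tissues was not tested.

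At 96 hpf tBOOH lowered 3 of 24 tested P450 genes in the wildtype, where 0.769% of all genes fell and 1.53% rose. The values of cyp2v1 were 93.7, 146 and 114 with tBOOH against 275, 224 and 334 in water (-1.23 ± 0.26, adjusted p = 0.00525). Those of cyp2ad2, its neighbour on the chromosome, were 12.1, 19.6 and 15.9 against 36.7, 43.0 and 57.8 (-1.47 ± 0.32, adjusted p = 0.00818). The sterol demethylase cyp51 had 4.41, 5.45 and 3.18 against 25.1, 13.8 and 13.9 (-1.77 ± 0.41, adjusted p = 0.0153). All 3 genes separated treated from control pools. The calls of cyp2v1 and cyp2ad2 were lost without water pool 3 or tBOOH pool 1 (adjusted p up to 0.0799), and that of cyp51 without water pool 1 or tBOOH pool 1 or 3 (up to 0.146). Of 11 genes of the cholesterol synthesis list outside the P450s 1 fell, hmgcra (-1.29 ± 0.35). The liver list had 1 of 20 genes higher and the intestine list 0 of 14 called. The summed intestine value was nevertheless 999 to 1237 with tBOOH against 1349 to 1533 in water, the pronephros value 193 to 215 against 221 to 232 and the radial glia value 1434 to 1563 against 1101 to 1277, without overlap, while liver values overlapped (2471 to 2676 against 2455 to 2608). Their part in the P450 changes was not tested.

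In the knockout at 96 hpf tBOOH raised 2 of the 24 P450 genes and lowered 1, where 5.46% of all genes rose and 2.04% fell. The vitamin D hydroxylase cyp24a1 had 25.7, 19.3 and 17.3 with tBOOH against 1.1, 4.18 and 1.12 in knockout water (2.92 ± 0.47, adjusted p = 7.84e-05). The drug-metabolising cyp3a65 had 51.4, 31.7 and 30.3 against 7.68, 13.6 and 14.5 (1.59 ± 0.26, adjusted p = 7.86e-05). Both separated the groups and kept the call with any 1 library left out. In the wildtype with tBOOH cyp3a65 had 92.6, 133 and 120 and cyp24a1 33.1, 14.2 and 31.8, and neither was called against wildtype water. The wildtype tBOOH pools of cyp3a65 all lay above its wildtype water pools, while those of cyp24a1 overlapped. The response itself was not called as different between the genotypes, at 1.11 ± 0.36 for cyp3a65 (adjusted p = 0.354) and 2.03 ± 0.66 for cyp24a1 (adjusted p = 0.362). The gene cyp2ad2 fell in the knockout to 10.6, 4.53 and 4.32 from 17.6, 15.7 and 11.2 (-1.15 ± 0.32, adjusted p = 0.0217). That call was lost without knockout water pool 1 or 2 or tBOOH pool 2 or 3, and with edgeR or DESeq2 (adjusted p up to 0.134). The reductase porb rose as well (1.98 ± 0.23, adjusted p = 6.47e-07), with the haem synthesis gene alas1 (0.96 ± 0.21) and the receptor target tiparp (1.66 ± 0.39). In the same comparison 9 of 20 liver genes rose, c3a.1 (2.6) and fgb (2.06) among them, and 2 of 14 intestine genes. The summed liver value was 610 to 1277 with tBOOH against 398 to 470 in knockout water. Intestine values were 454 to 596 against 297 to 318 and radial glia values 2098 to 2560 against 1758 to 1877, without overlap. Pronephros values overlapped (148 to 196 against 158 to 166). The part of these tissues in the P450 values was not tested.

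**Figure D5:**
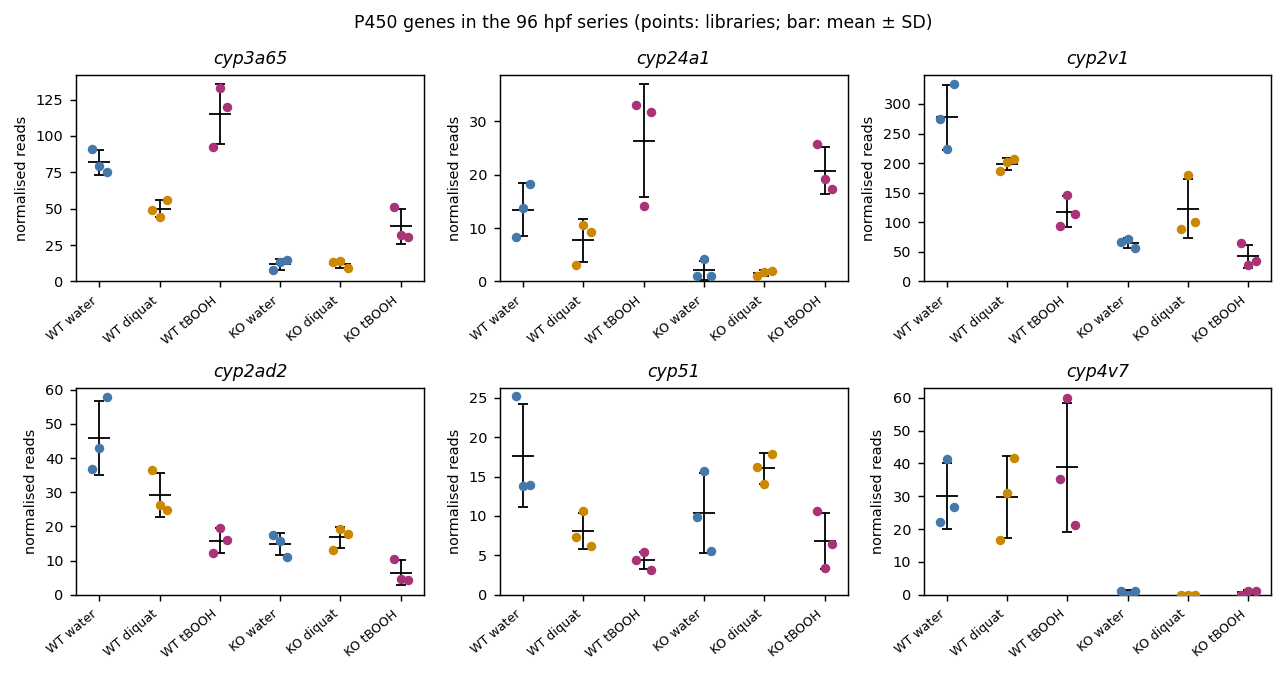
Normalised counts of cyp3a65, cyp24a1, cyp2v1, cyp2ad2, cyp51 and cyp4v7 in each 96 hpf library, by genotype and treatment (3 pools per group). With tBOOH cyp3a65 and cyp24a1 are higher than in water in the knockout, and cyp2v1, cyp2ad2 and cyp51 are lower than in water in the wildtype. The wildtype tBOOH pools of cyp3a65 also lie above its wildtype water pools, without a call. The gene cyp4v7 stays at or below 1.13 in all knockout libraries.

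Diquat at 96 hpf gave no called P450 gene in the wildtype (3 of 24 with an unadjusted p below 0.05, 0 calls by edgeR and DESeq2) or in the knockout (3 of 24, 0 calls by edgeR and 1 by DESeq2), where 0.114% of all genes rose and 0.131% fell in the wildtype and 0.315% rose in the knockout. In the wildtype the median change of the tested P450 genes was -0.41 and that of all genes 0.00. Genes that are high in wildtype water pass the level filter, which favours a lower median. Without the filter 59 of 83 P450 genes with reads had a lower mean with diquat (71.1%, against 53.1% of all genes). In 15 all 3 diquat pools lay below all 3 water pools and in 1 above. Of all genes 7.46% and 4.53% did so. The summed P450 value was 794 ± 7.26 against 1061 ± 36.3 in water. Summed liver values were 1791 to 2240 with diquat against 2455 to 2608 in water, intestine values 877 to 990 against 1349 to 1533, pronephros values 183 to 199 against 221 to 232 and radial glia values 1315 to 1377 against 1101 to 1277, without overlap. Their part in the P450 values was not tested. The gene cyp3a65 had 49.1, 44.5 and 56.1 with diquat, below its 3 water pools (-0.70, adjusted p = 0.667), and was called with the compared groups alone (adjusted p = 0.0142). In the knockout cyp2v1 had 89.2, 180 and 100 with diquat, above 65.9, 72.1 and 55.8 in water (0.86, adjusted p = 0.2, and 0.0452 by DESeq2). In the same knockout diquat pools the summed liver value was 719, 1103 and 610, against 398 to 470 in knockout water. Their intestine value was 377 to 452 against 297 to 318, and their radial glia value 1605 to 1678 against 1758 to 1877. Pool 2, with the highest cyp2v1 value, also had the highest liver value, and the part of these tissues was not tested. The wildtype values of cyp2v1 with diquat were 187, 202 and 207. The responses to diquat and to tBOOH were called as different between genotypes for 0 of 24 P450 genes, where 0.00874% and 0.324% of all genes had a higher response in the knockout (4 and 3 with an unadjusted p below 0.05, 0 calls by edgeR in both, 1 and 0 by DESeq2). The same tests at 48 hpf, and for tBOOH at 2 hpf, called 0 genes by all 3 tools, with 0, 1 and 0 unadjusted p-values below 0.05, and 0.0128% of all genes had a higher tBOOH response in the knockout at 2 hpf.

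Many members lie side by side in the genome. In the RefSeq annotation of assembly GRCz12tu, used for gene order alone because the counts rest on GRCz10, 80 of 83 member names were matched, 7 of them through a synonym, and 44 members stood in 9 runs of adjacent P450 genes. The longest run held 11 genes, cyp2n13, cyp2ad6, cyp2ad2, cyp2v1, cyp2ad3, cyp2p6 to cyp2p10 and cyp2j20, of which 7 were tested. Of these cyp2n13, cyp2ad6, cyp2ad2, cyp2p8 and cyp2p9 passed the level filter at 96 hpf alone, where the wildtype is high, which favours calls of a rise and of a lower knockout value, so nothing is read from counts within the run. Not called between the genotypes at 96 hpf were cyp2ad3, at 35.1, 35.5 and 37.9 in the knockout and 51.3, 55.0 and 39.6 in the wildtype, and cyp2ad6. The genes cyp3c1 to cyp3c4 formed a run with 3 tested genes, and the cyp2k genes a run of 8 with cyp2k16 and cyp2k19 tested at 96 hpf. The cyp2aa genes stood in 2 runs of 5, of which cyp2aa4, cyp2aa8 and cyp2aa9 passed the filter, at 2 hpf alone. Neighbouring copies can share reads, and how the counting split such reads is not given in the sources used here.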

How the data were processed

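The authors deposited 1 table of normalised counts for 31953 genes in 54 libraries: per the submitters' processing notes FastQC 0.11.4, TopHat2 2.0.14, Bowtie2 2.2.5, SAMtools 0.1.19, HTSeq, DESeq2 1.10.1 and R 3.2.3 were used with GRCz10. This deposited signal is read counts over a size factor (0.571 to 1.42). Dividing by the value of 1 read gave whole reads within 0.01 read. These fed edgeR 4.0.16 and DESeq2 1.42.0 as alternatives. The main test was limma 3.58.1 in R 4.3.3 on log2(value + 1), with a trend on the mean. Each stage was fitted alone, and the stage steps over all 54 libraries. Calls required an adjusted p below 0.05. The methods were tested on simulated data. Alternatives were a pseudocount of 5, no filter, trimmed-mean (TMM) rescaling, a replicate block, the compared groups alone, and leaving out each replicate. Floors count 3 reads, and 95% intervals cover counting error only. The text names every member called within a stage, the 12 largest called changes per wildtype step, the 10 members with the most reads per stage, every tested member of families 1, 11, 17, 19, 24, 26, 27 and 51, and leading genes of the lists in contrasts with a called member; others were chosen after their values were seen. Members and lists were chosen with earlier results of these data known. Pools are the replicates. Whether same-numbered pools share a clutch is not given in the labels, and p-values measure the spread between these pools. Sequences were not used here, so a planned sequence description was not run. Results for 1 listed gene are not reported here.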

Additional observations from a re-analysis of the deposited data

Results flagged for a closer look

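The comparisons below are those in which an effect differed between the genotypes by limma's test of the difference itself. For cyp26c1 (ENSDARG00000097644) the response to diquat at 2 hpf differed by -1.90 on the log2 scale, with a rise in the wildtype and values of 36.2, 95.2 and 78.5 against 70.4, 187 and 59.7 in the knockout. The other differences concern the step from 48 to 96 hpf in water, which was lower in the knockout for 9 genes. They were -3.33 for cyp2n13, -2.70 for cyp8b1, -3.64 for cyp2k16, -3.05 for cyp3a65, -2.80 for cyp2k19, -1.86 for cyp2y3, -1.57 for cyp2ad2, -2.48 for cyp4v8 and -2.41 for cyp2p8. For cyp2k16 the knockout values were 0, 4.07 and 1.60 at 48 hpf and 0, 0 and 0 at 96 hpf. Summed liver and intestine values separated the genotypes at 96 hpf in the same libraries. In knockout water at 48 hpf these sums were 703 and 122 in pool 2, against 142 and 31.2 in pool 1 and 156 and 20.0 in pool 3. The part of these tissues in the differences was not tested. Groups of 3 pools are too small for a test of single outlying samples.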

How the results depend on the processing

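No called value changed sign under any alternative. Of 112 member calls the pseudocount of 5 kept 109, no filter 101, TMM rescaling 108, the compared groups alone 95, edgeR 95 and DESeq2 93 (16 lost, the rest without an adjusted p); over the fits with 1 library left out 610 calls were kept and 122 lost. The 2 cyp26c1 calls of wildtype diquat at 2 hpf became 1 without the filter, 4 with the compared groups (adding cyp26a1 and cyp2y3, both lower), 1 by edgeR, 0 by DESeq2 and 0 to 1 with 1 library left out. The genotype difference in that response (1 call) became 0 with the compared groups and DESeq2, and 0 to 1 with 1 library left out. From 0 calls, wildtype tBOOH at 48 hpf gave 1 with the pseudocount of 5, the compared groups or edgeR, wildtype diquat at 96 hpf 1 with the compared groups, knockout diquat at 96 hpf 1 by DESeq2 and 0 to 1 with 1 library left out, and the genotype difference in diquat response at 96 hpf 1 by DESeq2. The 21 calls of the wildtype 48 to 96 hpf step became 38 without the filter. The 12 of the knockout step became 7 by DESeq2, and 9 to 13 with 1 library left out. The 9 of the step difference became 13 with the pseudocount of 5 and 8 without the filter. They became 4 with the compared groups, 2 by edgeR, 2 by DESeq2 and 5 to 8 with 1 library left out. Knockout against wildtype gave 5 to 8 calls (8 with all libraries) at 2 hpf, 1 to 2 (1) at 48 hpf and 14 to 17 (17) at 96 hpf with 1 library left out, and 24 at 96 hpf without the filter. Wildtype tBOOH at 96 hpf gave 0 to 3 (3). TMM took the split of all genes for knockout diquat at 2 hpf from 242 higher and 49 lower to 0 and 0, and for the knockout 48 to 96 hpf step from 1849 and 748 to 1303 and 1227. The replicate block kept 112 of 112 member calls. Same-numbered pools did not deviate together in general: the mean correlation was 0.0377, -0.00964 and -0.000254 at 2, 48 and 96 hpf, and 8, 5 and 0 of 45 pairs exceeded 0.1, so the numbers were not taken to pair pools. Depth limits genes with few reads: 50 of 85 P450 genes entered no fit within a stage.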
